A study of Mus musculus with 2 samples.

Results

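The chains described here are the T cell receptor beta (TRB) contigs of thymic CD4 single positive (SP) T cells whose V segment was called TRBV10. All TRB contigs with this call were taken from both libraries, which gave 497 contigs in 497 cells, out of 9023 cells with a TRB contig. The call was chosen by its share: that share of TRB chains was higher in the Btla-/- library than in the WT library, so the difference is given as a description. The sequence of the contigs went against the name of the call, and TRBV10 is used here only as the name of the call.

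CD4 SP thymocytes came from WT mice (strain C57BL/6J) and from Btla-/- mice (strain C57BL/6-Btla KO) aged 8 to 12 weeks, with 1 library per genotype. BTLA is an inhibitory receptor of lymphocytes, and the comparison asks whether its loss goes along with a different repertoire of thymic T cells. The cells were enriched with a negative selection kit for naive CD4 T cells, no other treatment was given, and the 10x Genomics V(D)J workflow was used to sequence TCR transcripts with a barcode per cell and a unique molecular identifier (UMI) per transcript. The number of mice behind each library is not given in the sources used here. The libraries held 4141 WT and 5181 Btla-/- TRB contigs, and TRBV10 contigs were found in 190 of 4009 WT cells and 307 of 5014 Btla-/- cells with a TRB contig. TRBV10 contigs had a median of 12 UMIs in WT and 9 in Btla-/- cells, against 13 and 10 for other TRB contigs. The libraries had 30 cell barcodes in common, and 3 of these carried a TRBV10 chain in one library. The files hold TCR transcripts only, so neither the genotype nor the CD4 SP phenotype could be checked against gene expression.

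A TRB chain is made in the thymus by joining a V, a D and a J segment, and each V segment ends in a recombination signal at which the RAG recombinase cuts. Bases are trimmed from the cut ends and bases not in the genome are added before they are joined, so the third complementarity-determining region (CDR3), which spans the join and lies over the bound peptide, differs from cell to cell. CDR1 and CDR2 are encoded by the V segment itself. A T cell usually carries 1 productive TRB chain, which pairs with a TCR alpha (TRA) chain made from TRAV and TRAJ segments.

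All 497 TRBV10 contigs carried 1 and the same V region, 270 bases from the first framework region to the last base before the CDR3. This sequence had 1 exact match on chromosome 6 of GRCm38, at chr6:41059600-41059869 on the plus strand. That place is not in the gene annotated as Trbv10. It lies in the gene annotated as Trbv4 (41059443 to 41059886 in RefSeq), a functional V segment in both RefSeq and GENCODE M21, whose RefSeq description reads "T cell receptor beta, variable 10". The gene annotated as Trbv10 lies further along the chromosome (41091935 to 41092228) and is a pseudogene in both annotations. The V region with its end had 58.9% identity to it, 159 of 270 aligned columns. Of the 22 TRB V calls in the files, 21 led to the gene of their own name, with the joint call of TRBV12-2 and TRBV13-2 counted among them, and TRBV10 was the 1 that did not. None of the 9322 TRB contigs was called TRBV4. The sequence common to all members is shown from the start of the V region to the end of the Trbv4 segment in the GRCm38 genome of RefSeq, chr6:41059600-41059886, with CDR1 and then CDR2 in capitals.
Trbv4 V region and end: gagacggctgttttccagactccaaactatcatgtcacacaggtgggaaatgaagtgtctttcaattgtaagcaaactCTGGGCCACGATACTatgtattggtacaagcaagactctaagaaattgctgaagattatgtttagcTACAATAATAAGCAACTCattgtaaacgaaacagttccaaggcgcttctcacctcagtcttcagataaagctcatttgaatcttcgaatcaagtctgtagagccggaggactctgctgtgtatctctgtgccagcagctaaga

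The last 17 bases of the segment, from the cysteine codon that opens the CDR3, read in frame as Cys, Ala, Ser, Ser and a stop codon (taa). Of the 22 V calls, TRBV10 was the 1 whose germline segment held an in-frame stop in this end. The same 30 bases at the ends of both genes are shown to compare them, with the codon at the place of the conserved cysteine in capitals, at chr6:41059857-41059886 for Trbv4 and chr6:41092199-41092228 for the annotated Trbv10. The annotated Trbv10 has a tryptophan codon there, and the reading frame without a stop codon holds 0 cysteine codons.
Trbv4 end: tgctgtgtatctcTGTgccagcagctaaga
annotated Trbv10 end: ccatgtacttcTGGgccagcagtgaacaaa

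The recombination signal that follows Trbv4 (chr6:41059887-41059925) is shown because it sets where the segment is cut, with the heptamer and the nonamer in capitals on both sides of a 23-base spacer. Its heptamer differed in 1 letter from the consensus CACAGTG, which 8 of the 22 calls have exactly, and its nonamer differed in 2 letters from the consensus ACAAAAACC. Both were read on the plus strand at this fixed place, and a mismatch is a description of the letters.
Trbv4 recombination signal: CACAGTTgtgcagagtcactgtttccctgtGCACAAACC

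TRBV10 accounted for 190 of 4141 WT chains, 4.59% (3.97 to 5.27%), and 307 of 5181 Btla-/- chains, 5.93% (5.30 to 6.60%). Ranges in parentheses are exact (Clopper-Pearson) 95% intervals, and they measure only the error of counting. A single library stands for each genotype, so no difference has a replicate check, and differences between the genotypes cannot be told apart from differences between mice or preparations. No test was made. The difference was 1.34 percentage points and the ratio of the shares was 1.29. Of 21 V calls that made up at least 1% of chains in a library, 3 (14.3%) had a ratio at or above 1.25. These were TRBV14 at 1.37, TRBV23 at 1.35 and TRBV10 at 1.29. TRBV23 reached 1% only in the Btla-/- library (1.04%, against 0.773% in WT), so the minimum favoured a high ratio for it. The next calls below a ratio of 1.25 were TRBV26 at 1.21 and TRBV16 at 1.20. On chromosome 6 the functional segments on both sides of Trbv4 are Trbv3 and Trbv5. TRBV3 was 6.30% of WT and 5.93% of Btla-/- chains, a ratio of 0.940, and TRBV5 was 7.46% and 7.16%, a ratio of 0.960. TRBV19, a segment further along the locus, was more abundant than TRBV10 in WT. It was 7.196% of WT and 5.54% of Btla-/- chains, a ratio of 0.770.

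**Figure D1:**
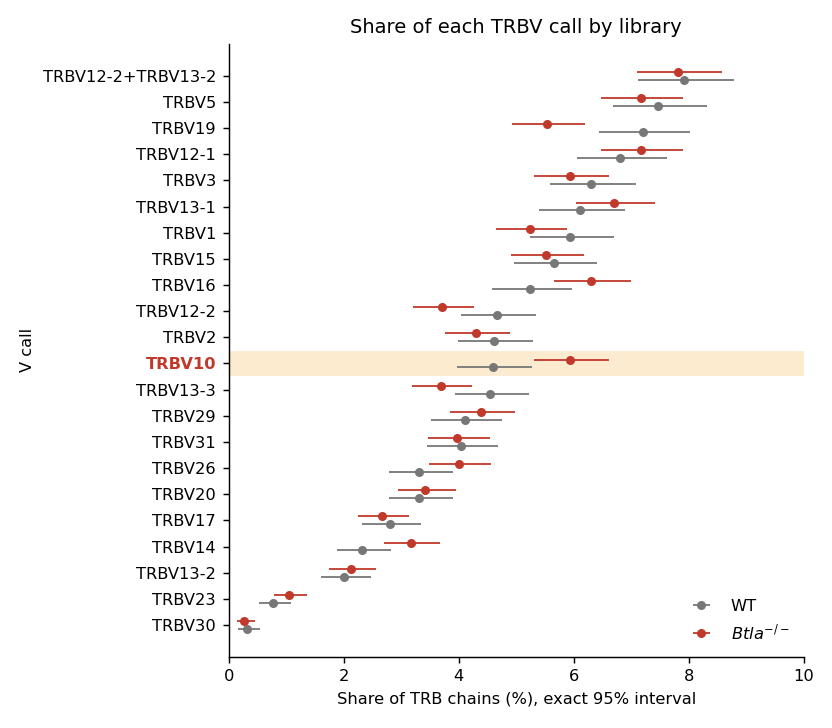
Share of TRB chains (%) of each of the 22 V calls in the WT (grey) and Btla-/- (red) libraries, with lines for exact 95% intervals of the counting error, in order of the WT share. TRBV10, shaded, lies at 4.59% in WT and 5.93% in Btla-/- cells, the share by which it was chosen.

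The share was higher in the Btla-/- library in each UMI stratum that held a TRBV10 contig. Among contigs with 5 or more UMIs it was 4.70% (175 of 3727; 4.04 to 5.42%) for WT and 6.08% (271 of 4460; 5.39 to 6.82%) for Btla-/- contigs. With 3 to 4 UMIs it was 3.98% (13 of 327; 2.13 to 6.70%) and 4.99% (29 of 581; 3.37 to 7.09%). With 2 UMIs it was 2.60% (2 of 77) and 5.60% (7 of 125). The contigs with 1 UMI were too few to compare, with 0 TRBV10 contigs of 10 WT contigs and 0 of 15 Btla-/- contigs, whose exact intervals reach 30.9% and 21.8%. The intervals of the libraries overlapped in every stratum, by least in the deepest, which held 90.0% of WT and 86.1% of Btla-/- chains.

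**Figure D2:**
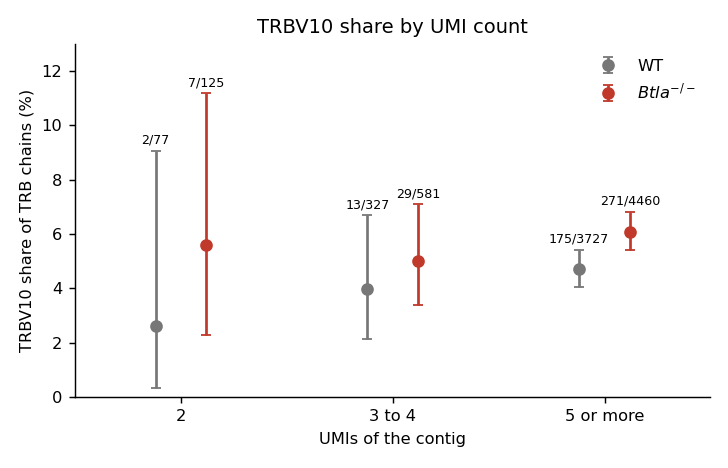
TRBV10 share of TRB chains (%) by the number of UMIs of the contig, in the WT (grey) and Btla-/- (red) libraries, with exact 95% intervals of the counting error and the counts above each point. The share of contigs with 5 or more UMIs was 4.70% in WT and 6.08% in Btla-/- cells, and the strata with fewer UMIs hold few TRBV10 chains.

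The share was also counted in classes of cells. Among chains of cells with a TRA contig, TRBV10 made up 4.43% (80 of 1805; 3.53 to 5.49%) in WT and 5.21% (99 of 1902; 4.25 to 6.30%) in Btla-/- cells. Among chains of cells without one it was 4.71% (110 of 2336; 3.89 to 5.65%) and 6.34% (208 of 3279; 5.53 to 7.23%). Only in the smallest class, cells with more than 1 TRB chain, was the share lower in the Btla-/- library, at 5.68% (15 of 264) in WT and 3.59% (12 of 334) in Btla-/- cells, with intervals that overlapped. Whether any of these classes differed from the others in the genotype difference was not tested.

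The end of the Trbv4 segment was trimmed in every member. Of its 17 bases in the CDR3, TRBV10 chains kept a mean of 12.2 ± 1.03 (SD over 190 chains) in WT and 12.2 ± 1.15 (307 chains) in Btla-/- cells, counted as the run of germline bases from the start of the CDR3. Added bases that match the germline by chance are in this count. Other TRB chains kept a mean of 13.7 bases in both libraries. The segment had lost a mean of 4.79 bases over both libraries, the most of the 22 V calls, followed by TRBV15 at 4.01 bases. Chains that keep the stop codon are not productive and so are absent from the files. Only this call has such a stop, so its rank cannot be told apart from this filter. Keeping 12 bases, which ends exactly before the stop codon, was commonest and was seen in 47.4% of WT and 43.6% of Btla-/- TRBV10 chains. A further 27.4% and 28.0% kept 13 bases, and 8.42% (16 chains) and 11.1% (34 chains) kept 14. None of the 497 kept 15 or more, with which the frame would read the stop codon, and the files hold productive contigs only. TRBV16 chains kept a mean of 14.01 bases in WT and 14.1 in Btla-/- cells, and TRBV19 chains kept 12.7 and 12.9.

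**Figure D3:**
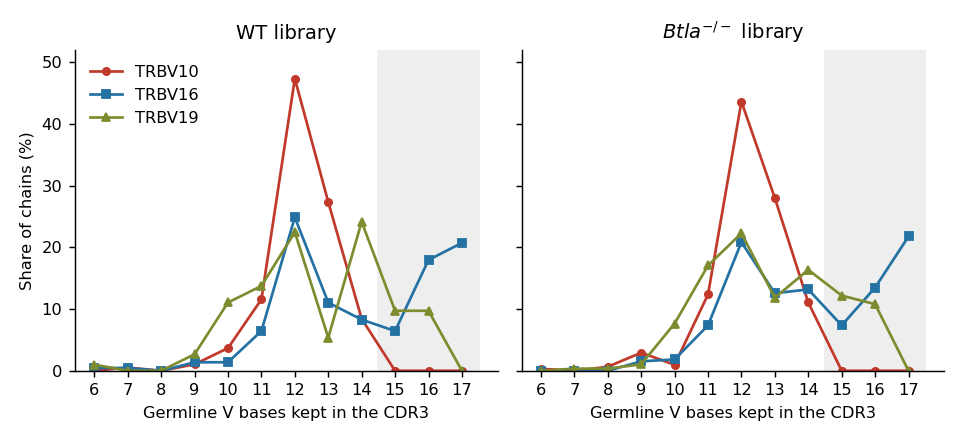
Share of chains (%) by the number of germline V bases kept in the CDR3, for TRBV10 (red circles), TRBV16 (blue squares) and TRBV19 (green triangles), with the WT library on the left and the Btla-/- library on the right. TRBV10 peaks at 12 bases (47.4% and 43.6%) and is at 0 in the shaded range of 15 or more bases, where the other calls still have chains.

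Among the productive contigs, TRBV10 chains had fewer V bases and more bases between V and J than other TRB chains. They had a mean of 11.8 ± 4.28 (SD) bases between the kept V and J bases in WT and 11.4 ± 4.06 in Btla-/- cells, against 10.5 and 10.7 for other TRB chains. TRBV19 chains had 10.2 in WT and 11.3 in Btla-/- cells, the latter close to TRBV10, and TRBV16 chains had 10.8 in both. The J end of TRBV10 chains kept 18.6 and 18.8 bases, against 18.5 in other chains of both libraries. The whole CDR3 was close to that of other chains in length, with a mean of 14.2 ± 1.53 (SD) amino acids in WT and 14.1 ± 1.45 in Btla-/- cells, against 14.2 and 14.3 for other TRB chains. The commonest length was 14 amino acids, in 31.1% of WT and 31.6% of Btla-/- TRBV10 chains. CDR3s of 16 or more amino acids made up 18.4% (13.2 to 24.7%) and 16.3% (12.3 to 20.9%), against 18.1% and 19.6% of other chains. The CDR3s below show the join in single cells, from the conserved cysteine codon on, with the kept Trbv4 bases in capitals. For each library and for 12, 13 and 14 kept bases, the contig with most UMIs was taken.
WT, 12 bases kept, TRBJ1-2: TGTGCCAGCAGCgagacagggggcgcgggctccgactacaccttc
Btla-/-, 12 bases kept, TRBJ2-5: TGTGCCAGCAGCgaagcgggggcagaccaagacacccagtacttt
WT, 13 bases kept, TRBJ1-4: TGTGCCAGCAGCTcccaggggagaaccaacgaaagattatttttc
Btla-/-, 13 bases kept, TRBJ1-3: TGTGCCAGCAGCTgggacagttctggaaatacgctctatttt
WT, 14 bases kept, TRBJ2-1: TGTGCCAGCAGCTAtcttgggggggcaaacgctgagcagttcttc
Btla-/-, 14 bases kept, TRBJ2-1: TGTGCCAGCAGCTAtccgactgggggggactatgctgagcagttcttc

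The start of the CDR3 is encoded by the kept V bases. The first 4 residues were Cys-Ala-Ser-Ser in 88.4% of WT (168 of 190; 83.0 to 92.6%) and 88.6% of Btla-/- TRBV10 chains (272 of 307; 84.5 to 91.9%), against 66.9% and 67.5% of other TRB chains, whose V segments encode various starts. The same start was found in 94.0% and 91.7% of TRBV16 chains and in 76.8% and 83.3% of TRBV19 chains. Among TRBV10 chains, Cys-Ala-Ser-Arg came next, in 13 WT and 23 Btla-/- chains. Residue 5, where the germline has its stop codon, held Tyr in 8.95% (17 of 190; 5.30 to 13.9%) of WT and 12.1% (37 of 307; 8.63 to 16.2%) of Btla-/- TRBV10 chains. In other TRB chains Tyr stood there in 0.557% and 0.677%. Every TRBV10 chain that kept 14 V bases had Tyr at residue 5, 16 of 16 in WT and 34 of 34 in Btla-/- cells, since the kept ta can be read only as Tyr or stop. Chains that kept 13 bases had Ser, Leu, Phe, Trp or Cys there, led by Ser in 24 of 52 WT and 39 of 86 Btla-/- chains. Chains that kept 12 bases were led by Pro, in 40 of 90 and 50 of 134.

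Over all TRBV10 chains, the residue 5 share of Pro was 23.2% (17.4 to 29.8%) for WT and 18.6% (14.4 to 23.4%) for Btla-/- cells, against 12.1% and 12.8% in other TRB chains. Ser held it in 13.7% in both libraries, against 4.40% and 4.72%. In TRBV16 chains of WT and Btla-/- cells, Pro had 15.7% and 11.35% and Ser had 8.76% and 11.7%. In TRBV19 chains, Pro had 14.1% and 14.3% and Ser had 4.70% and 4.53%. Leu stood at residue 5 in 12.6% and 12.1% of TRBV10 chains, against 20.4% and 21.2% of other chains. Asp was rare there, in 2 WT and 10 Btla-/- TRBV10 chains (1.05% and 3.26%), against 12.4% and 12.7% of other chains. It was also rare in TRBV19 chains (3.36% and 3.14%) and in TRBV16 chains (1.38% and 1.84%). The germline ends of TRBV13-1, TRBV13-2 and TRBV13-3 encode Asp at this residue. Tyr, Pro, Ser, Leu and Asp were chosen for residue 5 after their values were seen. In the middle of the CDR3, from residue 5 to the sixth from the end, amino acid shares were also set beside other TRB chains. Over both libraries, Tyr, Asp and Ala differed most. This stretch takes in residue 5, so these differences are not separate from those given above. Shares without residue 5 were not counted. Tyr made up 4.25% of middle residues of WT and 4.89% of Btla-/- TRBV10 chains, against 2.33% and 2.22% in other chains. Ala made up 5.26% and 4.76%, against 6.96% and 6.76%, and Asp was 2.25 percentage points lower with TRBV10 over both libraries. Over both libraries Asp made up 6.21% and Ala 4.96% of middle residues of TRBV10 chains. The values were 5.68% and 5.51% in TRBV19 chains, and 7.75% and 5.06% in TRBV16 chains.

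Among CDR3s of 14 amino acids, 59 in WT and 97 in Btla-/- cells, the first 3 residues were Cys, Ala and Ser and the last was Phe in every TRBV10 chain. Ser led at residue 4 and Gly at residues 6 to 8 in both libraries, as they did in other TRB chains of this length. At residue 10, Asp stood in 11 WT chains with Ser in 10, and in the Btla-/- library Asp and Glu were tied with 16 each. At residue 5, Pro stood in 17 of 59 WT chains (28.8%) and Tyr in 2, and in the Btla-/- library Tyr stood in 15 of 97 (15.5%) and Pro in 14. At residue 9, Asn led in the WT library with 13 chains (22.0%), and Asn and Gly were tied in the Btla-/- library with 20 each (20.6%). At residue 11, Glu stood in 25 WT chains (42.4%) and Thr in 19 (32.2%), against 26 (26.8%) and 43 (44.3%) Btla-/- chains. At residue 12, Gln stood in 28 WT chains (47.5%) and Leu in 17 (28.8%), while in the Btla-/- library they were 1 chain apart, with 39 (40.2%) and 40 (41.2%). Tyr led at residue 13 with 59.3% and 73.2%, and it also led in other TRB chains of this length, with 55.8% and 55.5%. The end of the CDR3 is encoded by the J segment, so the values at residues 11 to 13 also reflect J use, described below. They were not counted by J segment. Hydrophobic residues at both positions 6 and 7, which have been linked to self-reactive TCRs, were found in 1 of 190 WT (0.526%) and 4 of 307 Btla-/- (1.30%) TRBV10 chains, against 1.11% and 1.09% of other TRB chains. At least 1 of these positions was hydrophobic in 45 WT TRBV10 chains, 23.7% (17.8 to 30.4%), and in 86 Btla-/- TRBV10 chains, 28.0% (23.1 to 33.4%), against 22.3% and 22.96%.

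J segments lie in the TRBJ1 and TRBJ2 clusters, each with its own D and C segment. TRBJ2 segments were used by 63.7% (121 of 190; 56.4 to 70.5%) of WT and 66.1% (203 of 307; 60.5 to 71.4%) of Btla-/- TRBV10 chains, against 60.01% and 59.5% of other TRB chains. The shares were 67.7% and 61.7% in TRBV16 chains, and 51.0% and 60.3% in TRBV19 chains. Every TRBV10 chain with a called C segment had the C segment of its J cluster, and 2 Btla-/- chains had none called. Set the other way, TRBV10 made up 4.18% of WT and 5.002% of Btla-/- chains of the TRBJ1 cluster, and 4.86% and 6.54% of chains of the TRBJ2 cluster. TRBD2 was called in 19 WT TRBV10 chains, 10.0% (6.13 to 15.2%), and in 38 Btla-/- TRBV10 chains, 12.4% (8.91 to 16.6%), against 6.63% and 6.67% of other chains. In TRBV16 chains it was called in 9.22% and 9.20%, and in TRBV19 chains in 3.69% and 6.97%. TRBD1 was called in 16.3% and 15.6% of TRBV10 chains, against 16.7% and 15.8% of other chains, and no D segment was called in the rest.

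In the WT library the J segments most used with TRBV10 were TRBJ2-4, TRBJ2-5 and TRBJ2-7, with 27 chains (14.2%; 9.58 to 20.0%) each. In the Btla-/- library they were TRBJ2-7 with 44 chains (14.3%), TRBJ2-3 with 41 (13.4%) and TRBJ2-5 with 39 (12.7%). TRBJ2-4, with 35 Btla-/- chains (11.4%), stood furthest above other TRB chains over both libraries, by 4.07 percentage points. TRBJ1-1 stood furthest below, by 3.88 points, with 21 WT chains (11.1%; 6.97 to 16.4%) and 18 Btla-/- chains (5.86%; 3.51 to 9.11%), where other chains used it in 11.9% and 11.6%.

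Of the 12 J segments, TRBJ2-3 was the partner whose share differed most between the libraries. It was used by 9 of 190 WT TRBV10 chains (4.74%; 2.19 to 8.80%) and 41 of 307 Btla-/- TRBV10 chains (13.4%; 9.76 to 17.7%). These intervals did not overlap, but they belong to the largest of 12 differences. How often the intervals lay apart for J segments of other V calls was not counted, so nothing is read from this. Other TRB chains used TRBJ2-3 in 8.93% and 8.97%. Thus the WT share of TRBJ2-3 among TRBV10 chains lay below that of other chains, and the Btla-/- share lay above it. Without the TRBJ2-3 chains, TRBV10 made up 4.79% (181 of 3779; 4.13 to 5.52%) of WT and 5.66% (266 of 4703; 5.01 to 6.35%) of Btla-/- chains, a ratio of 1.18 and a difference of 0.866 percentage points. This way of counting was chosen after the values were seen. Of the 11 combinations of TRBV10 with a J segment that had at least 20 chains, 5 had a ratio of shares of at least 1.25, where 57 of 196 combinations of any V call did (29.1%). The TRBV10 combinations add up to the share by which the call was chosen, so nothing is read from this count. These were TRBJ2-3 at 3.64, TRBJ1-3 at 2.51, TRBJ1-6 at 2.40, TRBJ2-2 at 1.50 and TRBJ2-7 at 1.30. TRBJ1-1 at 0.685 went the other way.

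**Figure D4:**
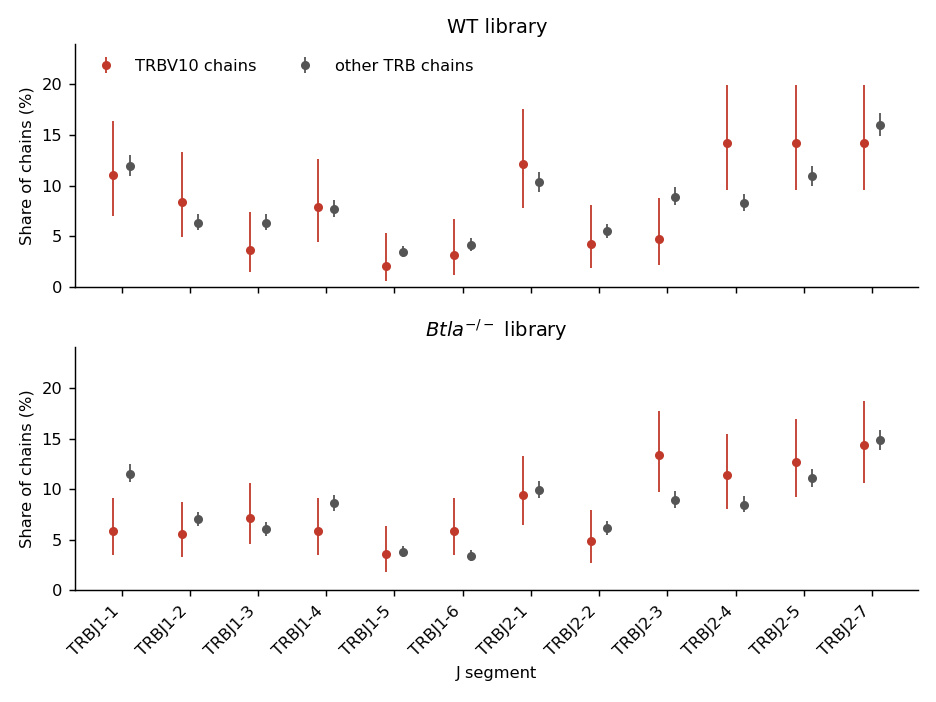
Share of chains (%) that used each J segment, for TRBV10 chains (red) and all other TRB chains (dark grey) of the WT library (top) and the Btla-/- library (bottom), with exact 95% intervals of the counting error. TRBJ2-3 was used by 4.74% of WT and 13.4% of Btla-/- TRBV10 chains, while other chains used it in 8.93% and 8.97%.

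Repeated TRBV10 chains were counted next. The 190 WT chains had 187 distinct combinations of J segment and CDR3 nucleotides and the 307 Btla-/- chains had 294, so that 3 WT and 13 Btla-/- combinations occurred in 2 cells each and none in more. That is 1.60% (0.332 to 4.62%) of WT and 4.42% (2.38 to 7.44%) of Btla-/- combinations, against 3.06% and 4.47% of those of other TRB chains. The repeats were spread over J segments, with at most 3 in the Btla-/- library on 1 J segment, reached by TRBJ2-3 and TRBJ2-5. The 41 Btla-/- chains with TRBJ2-3 take in these repeats, and the TRBJ2-3 share over distinct chains was not counted. The barcodes of each pair differed at 9 or more bases. Both cells of a pair had a TRA contig for 4 Btla-/- pairs, and 3 of these 4 had the same TRA CDR3. No TRBV10 CDR3, as nucleotides or amino acids, occurred in both libraries. Such sharing was rare in all V calls, since 12 of the 22 had 0 amino acid CDR3s in common and 20 had 0 nucleotide CDR3s. Among other TRB chains, 18 combinations of V call and amino acid CDR3 were in both libraries, 0.476% of the WT and 0.387% of the Btla-/- ones.

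A TRA contig was found in 80 WT cells with TRBV10 (42.1%; 35.0 to 49.5%) and 99 Btla-/- cells (32.2%; 27.1 to 37.8%), against 41.7% and 34.8% of cells with other TRB chains. A further TRB chain was found in 15 WT cells with TRBV10 (7.89%; 4.49 to 12.7%) and 12 Btla-/- cells (3.91%; 2.04 to 6.73%), against 3.06% and 3.29% of other cells. A cell with more than 1 TRB chain has more chances to hold a TRBV10 chain, so these shares are not a like comparison. Among chains of such cells TRBV10 made up 5.68% in WT and 3.59% in Btla-/- cells. Among chains of cells with 1 TRB chain it made up 4.51% and 6.09%. TRBV10 had more UMIs than the other chain in 9 of the 15 WT cells and in 6 of the 12 Btla-/- cells, with 1 tie. Droplets that held more than 1 cell were not looked for or removed.

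Pairing was counted in cells with TRBV10 as their 1 TRB chain, which held 69 TRA chains in 65 WT cells and 93 TRA chains in 87 Btla-/- cells. The TRAV subgroups paired most often were the same in both libraries. TRAV6 was paired in 10 WT (14.5%; 7.17 to 25.04%) and 14 Btla-/- chains (15.1%; 8.48 to 23.97%), against 15.6% and 15.3% with other TRB chains. TRAV12 was paired in 10 (14.5%) and 13 (13.98%), against 11.3% and 11.2%, and TRAV7 in 8 (11.6%) and 12 (12.9%), against 12.8% and 15.2%. Over both libraries TRAV12 stood furthest above its share with other TRB chains, by 2.95 percentage points, and TRAV13 furthest below, by 2.13 points, with 5 WT and 9 Btla-/- chains, among subgroups with at least 10 TRBV10 pairs. This minimum leaves out subgroups that are low with TRBV10, such as TRAV4 with 7 pairs (4.32%, against 7.79% with other TRB chains), which was added after its values were seen. With only contigs of at least 3 UMIs, TRAV6 was 6.38% (1.34 to 17.5%) of the Btla-/- TRA chains paired with TRBV10. Each share with other TRB chains given here for TRAV6, TRAV12 and TRAV7 lay within the interval of the TRBV10 value. At these numbers of pairs, differences of several percentage points in TRAV use were not detectable.

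**Figure D5:**
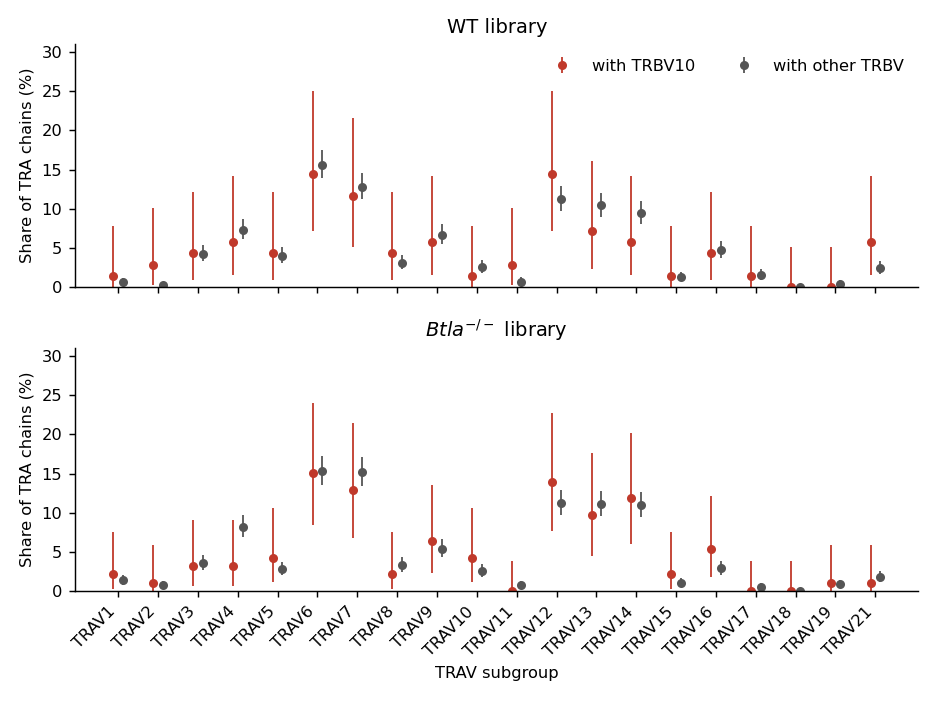
Share of TRA chains (%) in each TRAV subgroup, in cells whose 1 TRB chain was TRBV10 (red) or another V call (dark grey), in the WT library (top) and the Btla-/- library (bottom), with exact 95% intervals of the counting error. TRAV6, TRAV12 and TRAV7 lead with TRBV10 in both libraries, and their intervals span the values of the other cells.

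TRAJ segments paired with TRBV10 were spread widely, over 35 segments in each library. The most frequent were TRAJ37, TRAJ42, TRAJ52 and TRAJ58 in the WT library with 4 chains each, and TRAJ2, TRAJ4 and TRAJ17 in the Btla-/- library with 6 each. TRAJ1 to TRAJ30, the segments nearest the C segment, made up 39.1% (27.6 to 51.6%) of TRA chains paired with TRBV10 in WT and 53.8% (43.1 to 64.2%) in Btla-/- cells, against 48.7% and 57.5% with other TRB chains. The TRA chain of invariant natural killer T cells, TRAV11 with TRAJ18, was found with TRBV10 in 0 of 69 WT and 0 of 93 Btla-/- chains, where a limit of 3 counts of the total allows shares of up to 4.35% and 3.23%. It was found with other TRB chains in 8 of 1607 and 9 of 1577. TRAV1 with TRAJ33, the TRA chain of mucosal-associated invariant T cells, was likewise found in 0 TRBV10 cells. With other TRB chains this pair was found in 2 of 1607 WT and 1 of 1577 Btla-/- chains. At such low shares, nothing is read from either count of 0. The paired TRA CDR3s had a mean of 13.9 ± 1.44 (SD) amino acids in WT and 13.6 ± 1.46 in Btla-/- cells, against 13.8 and 13.7 with other TRB chains.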

How the data were processed

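TCR transcripts of CD4 SP thymocytes were measured in 1 WT and 1 Btla-/- library. The authors assembled contigs with Cell Ranger 7.2.0 and a GRCm38 V(D)J reference, and the deposited tables hold unnormalized counts of reads and UMIs per contig, for productive contigs of called cells. Deposited summary tables by the authors were not used. TRBV10 chains were the TRB contigs with that V call. Every contig was counted, without doublet removal. The framework 1 to framework 3 bases of each call were matched to chromosome 6 of GRCm38 (RefSeq genome and annotation, GENCODE M21), and kept V bases were the run of CDR3 bases equal to the germline end. Reads per library were 26700294 (WT) and 22026825 (Btla-/-). A share of 4.59% of 4141 chains has an interval of 3.97 to 5.27%. No test was made, with 1 library per genotype. Named J and TRAV segments were the 3 used most often in either library and the 2 furthest from other chains over both libraries (TRAV with at least 10 pairs), named TRAJ segments the most paired with ties, and named V calls TRBV19, TRBV16, the neighbours and those beside the ratio of 1.25; others are said to be chosen later. The members, lists and measures were chosen with earlier results of these data known. Alternatives were contigs of at least 2 or 3 UMIs, cells with 1 TRB chain or 1 chain of each kind, the contig with most reads, distinct chains, barcodes in common left out and, after the data were seen, TRBJ2-3 left out. Counting was tested on simulated data. Python 3.11.15, pandas 2.3.3 and scipy 1.17.1 were used.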

Additional observations from a re-analysis of the deposited data

How the results depend on the processing

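The 13 values recomputed were the TRBV10 share, its difference between the libraries, the TRBJ2 share, the mean CDR3 length, the Cys-Ala-Ser-Ser share, the mean number of V bases kept and the leading TRAV subgroup. Over the alternatives other than the one with a J segment left out, the difference in TRBV10 share stayed between 1.24 and 1.57 percentage points, with shares of 4.51 to 4.70% in WT and 5.92 to 6.09% in Btla-/- cells. Leaving out TRBJ2-3 chains, an alternative chosen after the data were seen, lowered the difference to 0.866 points. The TRBJ2 share stayed between 63.3 and 64.2% in WT and 65.3 and 66.7% in Btla-/- cells. One value moved beyond its counting interval: with at least 3 UMIs, TRAV6 was 6.38%, against 15.1%, of TRA chains paired with TRBV10 in the Btla-/- library, and the cause was not tested. No paired analysis was possible because each genotype has 1 library, and no library could be left out. Pairing rests on few chains, with a TRA contig in 80 WT and 99 Btla-/- TRBV10 cells.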
